A study of Rattus norvegicus with 24 samples.

Results

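The adducins and the accessory subunits of the sodium-potassium ATPase were examined in kidneys of Dahl salt-sensitive rats and of 2 congenic substrains. The genes were Add1, Add2 and Add3 (α-, β- and γ-adducin), Atp1b1 (the pump's β1 subunit), and Fxyd2 and Fxyd4, small membrane proteins that bind the pump. These 6 genes were chosen with earlier results of these data known. Every probe set whose platform annotation gave one of their symbols alone was taken, without regard to its values. That gave 9 probe sets of 31142 that are not array controls. All 9 were on the RAE230A array and 0 on the RAE230B array. All 9 had a mean signal above the minimum set for testing, which 21799 probe sets reached.

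Male rats of 3 strains were compared. They were inbred SS/jr rats (called S) and rats of the 2 congenic substrains ET3x1 and ET3x2, which carry alleles of a salt-resistant donor on chromosome 3 in an otherwise S background. All 3 strains ate a diet with 0.4% NaCl up to 39 to 41 days of age and then one with 2% NaCl for 28 days, so the groups had the diet, the sex and the age of 67 to 69 days in common. RNA of left kidneys was pooled from 2 rats a pool for S and from 3 rats a pool for each congenic substrain, giving 4 pools a strain from different rats. The 12 pools, from 32 rats, were each put on 1 array of each design. The pools are named A to D for S, E to H for ET3x1 and I to L for ET3x2. A spread between pools is smaller than that between single rats, because each pool averages its rats, and no group kept on the first diet is analysed here. In the RefSeq gene table none of the 6 genes lies on chromosome 3.

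Adducins cap the fast-growing ends of actin filaments and bind spectrin to them, which builds the membrane skeleton under epithelial plasma membranes. They work as complexes of α-adducin with β- or γ-adducin, and adducin variants are known from hypertensive strains of rats, where they have been tied to the activity and the surface residence of the sodium pump. The pump moves sodium out of tubule cells and so drives sodium reabsorption along the nephron. Its β subunit is needed for folding and delivery to the membrane, and FXYD proteins adjust its affinity for ions.

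Signals were on a log2 scale, with RAE230A values between 4.97 and 15.24 and array medians between 8.49 and 8.60. The scale was inferred from that range. A difference of 1 is then a doubling, and each probe set has its own zero, so levels of different probe sets were not ranked against each other. Whole-kidney RNA cannot tell fewer cells of a type from less RNA per cell. Kidney markers were present, with 7 of 7 proximal tubule, 5 of 5 thick ascending limb and 6 of 6 principal cell markers above the minimum. Among defining markers of other cells, Pvalb of the distal convoluted tubule, Nphs1 of podocytes, Epb42 of red cells and Ptprc of leukocytes were below it. In 3 pools, A and B of S and J of ET3x2, the control probe sets at the 5′ and 3′ ends of actin mRNA stood closer together (-1.27 to -1.14 on RAE230A) than in the other 9 pools (-2.10 to -1.66). Results are given with and without these pools where they bear on them.

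1 of the 9 probe sets changed between strains, in a comparison where 1.04% of all tested RAE230A probe sets did. An Add3 probe set was lower in ET3x2 than in ET3x1 kidneys by 0.83 on the log2 scale, 1.78-fold, while the other Add3 probe set differed by 0.04. The call was lost when pool E, G, I or K alone was left out (limma adjusted p = 0.0805 to 0.129). No probe set of Add1, Add2, Atp1b1, Fxyd2 or Fxyd4 passed an adjusted p of 0.05 in any of the 3 comparisons. The differences of the congenic substrains from S lay within 0.48 in size.

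**Figure D1:**
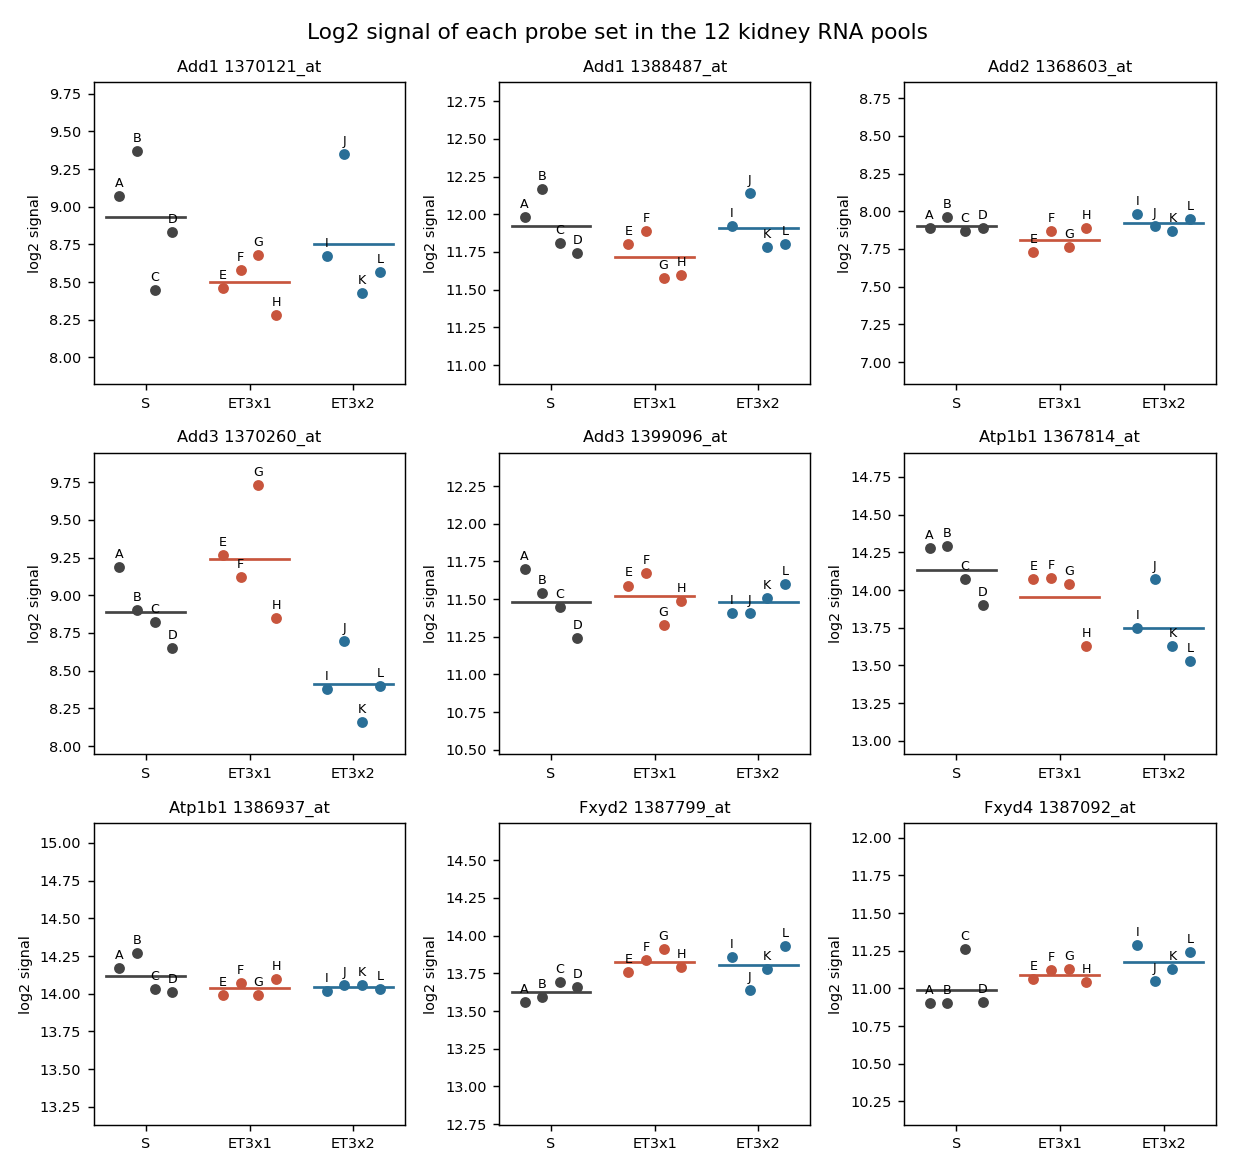
Log2 signal (vertical axis) of each of the 9 probe sets in the 12 pools, by strain; points are pools with their letter, horizontal lines are strain means, and every panel spans the same log2 range. In the Add3 1370260_at panel the 4 ET3x2 pools (8.16 to 8.70) lie below the 4 ET3x1 pools (8.85 to 9.73), and in the Fxyd2 panel the S pools (13.56 to 13.69) lie below the ET3x1 pools (13.76 to 13.91).

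γ-Adducin was measured by 2 probe sets. With Add3 1370260_at the S pools A to D read 9.19, 8.90, 8.82 and 8.65. The ET3x1 pools E to H read 9.27, 9.12, 9.73 and 8.85, and the ET3x2 pools I to L 8.38, 8.70, 8.16 and 8.40. Every ET3x2 pool was thus below every ET3x1 pool, and the S pools lay between them with an overlap on both sides (only A to C were above the highest ET3x2 pool). The strain means were 8.89 ± 0.22 in S, 9.24 ± 0.37 in ET3x1 and 8.41 ± 0.22 in ET3x2 (SD, n = 4 pools each). The ET3x2 minus ET3x1 difference was -0.83 (SE 0.165, 95% interval -1.19 to -0.48) with an adjusted p of 0.0288 in limma, adjusted over all 11106 tested RAE230A probe sets. That array had 116 probe sets, 1.04%, past the same threshold in this comparison. Their number was 28 without pool G, 29 without K, 34 without E, 56 without I, 63 without J and 289 without F.

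Neither congenic substrain differed from S past the threshold with this probe set. ET3x1 was 0.36 above S (SE 0.165, 95% interval 0.0023 to 0.71, limma adjusted p = 0.375), and 0.19 without pool G, its highest pool. ET3x2 was 0.48 below S (difference -0.48, 95% interval -0.83 to -0.12, limma adjusted p = 0.305). The difference between the substrains therefore combined deviations from S in opposite directions, neither of which passed by itself. The call was lost when ET3x1 pool E (adjusted p = 0.0868), ET3x1 pool G (0.0805), ET3x2 pool I (0.0864) or ET3x2 pool K (0.129) was left out, with differences of -0.82, -0.67, -0.82 and -0.75 in limma. When pools A, B and J were all omitted, the difference was -0.93 and its limma adjusted p 0.0169.

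The other γ-adducin probe set, 1399096_at, read 11.70, 11.54, 11.45 and 11.24 in S. It read 11.59, 11.67, 11.33 and 11.49 in ET3x1 and 11.41, 11.41, 11.51 and 11.60 in ET3x2. The 3 strains overlapped throughout, with means of 11.48 ± 0.19, 11.52 ± 0.15 and 11.48 ± 0.094 (SD, n = 4). The ET3x2 minus ET3x1 difference was -0.04 (95% interval -0.26 to 0.18, limma adjusted p = 0.897), an interval that does not reach the -0.83 of 1370260_at. The intervals of this probe set against S were -0.18 to 0.26 in ET3x1 and -0.22 to 0.22 in ET3x2.

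Whether the 2 γ-adducin probe sets differed from each other in how they followed strain was tested directly. Within each pool the 1399096_at signal was subtracted from the 1370260_at signal. The result was -2.52, -2.65, -2.63 and -2.59 in S, -2.32, -2.55, -1.60 and -2.64 in ET3x1, and -3.03, -2.72, -3.35 and -3.20 in ET3x2. Only differences between strains in this quantity have a meaning, since the probe sets have separate zeros. All ET3x2 pools were below all pools of both other strains. ET3x2 was 0.80 lower than ET3x1 (difference -0.80) and 0.48 lower than S (difference -0.48), each with a two-sided exact permutation p of 0.0286, the smallest that 4 against 4 pools allow. Adjusted over the 9 such comparisons both became 0.129 (exact permutation, Benjamini-Hochberg). With this many pools none of the 9 could pass after adjustment unless 6 of them reached the smallest p, so the adjusted outcome was nearly fixed by the design. ET3x1 minus S was 0.32 (exact permutation p = 0.229, adjusted 0.463), and 0.09 without pool G. The position of the probes along the transcripts was not analysed here.

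**Figure D2:**
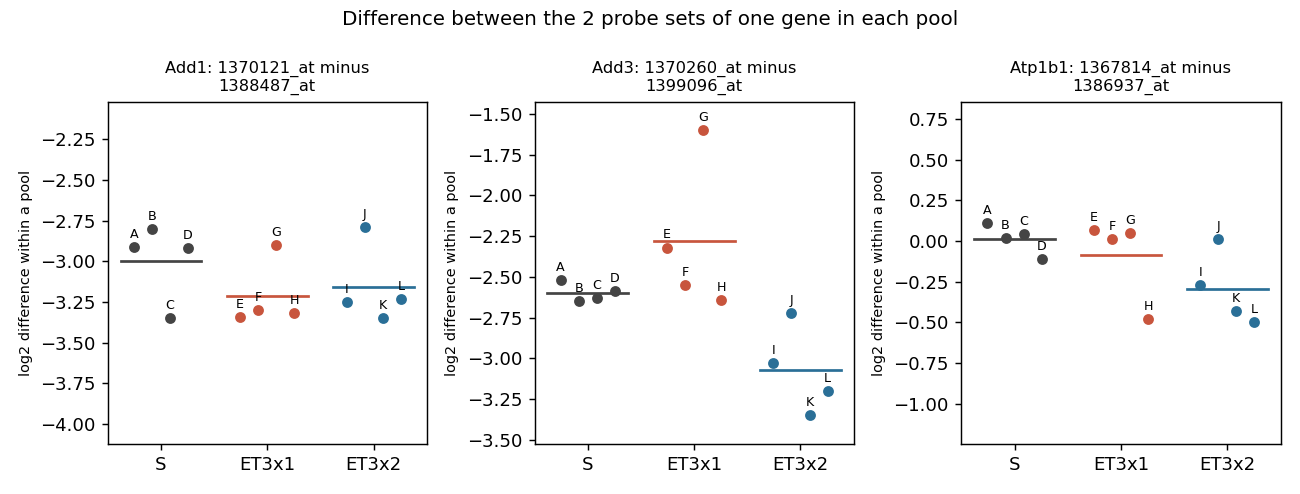
Log2 difference between the 2 probe sets of Add1, Add3 and Atp1b1 within each pool (vertical axis), by strain; points are pools with their letter and lines are strain means. For Add3 the ET3x2 pools (-3.35 to -2.72) lie below the S pools (-2.65 to -2.52), and for Atp1b1 pools H, I, K and L lie between -0.50 and -0.27 and the other 8 pools between -0.11 and 0.11.

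α-Adducin, the subunit found in all adducin complexes, was also measured by 2 probe sets. With Add1 1388487_at the S pools read 11.98, 12.17, 11.81 and 11.74, the ET3x1 pools 11.80, 11.89, 11.58 and 11.60, and the ET3x2 pools 11.92, 12.14, 11.78 and 11.80. The strains overlapped, and pools A, B and J gave the 3 highest signals of the 12. The means were 11.93 ± 0.19 in S, 11.72 ± 0.15 in ET3x1 and 11.91 ± 0.16 in ET3x2 (SD, n = 4). ET3x1 was lower than S by a difference of -0.21 (SE 0.111, 95% interval -0.45 to 0.03, limma adjusted p = 0.435), and with A, B and J left out it was -0.06 (adjusted p = 0.877). The interval was -0.25 to 0.22 for ET3x2 against S and -0.05 to 0.43 for ET3x2 against ET3x1.

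The second α-adducin probe set, 1370121_at, gave 9.07, 9.37 and 9.35 in pools A, B and J and 8.28 to 8.83 in the other 9. Its ET3x1 minus S difference was -0.43 (SE 0.197, 95% interval -0.85 to -0.01) with an unadjusted p of 0.0464 and an adjusted p of 0.371 in limma. Without those 3 pools it was -0.14 (limma adjusted p = 0.76). Both α-adducin probe sets thus gave a smaller difference without the 3 pools whose actin control stood apart. ET3x2 differed from S by -0.18 (95% interval -0.60 to 0.25) and from ET3x1 by 0.25 (95% interval -0.17 to 0.68). Leaving out pool J alone turned these into -0.37 and 0.06, and leaving out A, B and J into -0.08 and 0.06. The 2 probe sets' strain differences departed from each other by -0.22, -0.16 and 0.06 in the 3 comparisons, with exact permutation p of 0.371, 0.486 and 0.543 (adjusted 0.557 to 0.611).

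β-Adducin, the partner of α-adducin in red cells and brain, is represented by Add2 1368603_at alone. It read 7.89, 7.96, 7.87 and 7.89 in S, 7.73, 7.87, 7.76 and 7.89 in ET3x1 and 7.98, 7.90, 7.87 and 7.95 in ET3x2. These signals are close to the testing minimum of 7.52, and the strains overlapped. ET3x1 minus S was -0.09 (95% interval -0.22 to 0.04), ET3x2 minus S 0.02 (-0.11 to 0.15) and ET3x2 minus ET3x1 0.11 (-0.02 to 0.24), with limma adjusted p of 0.549, 0.926 and 0.419. The red cell marker list, of which 4 of 8 genes were above the minimum, had mean signals of 10.06 to 10.18 in S, 10.02 to 10.12 in ET3x1 and 10.02 to 10.26 in ET3x2, and 0 of these genes passed in any comparison.

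The pump's β1 subunit was read near the top of the array's range by both of its probe sets. With Atp1b1 1386937_at the S pools gave 14.17, 14.27, 14.03 and 14.01, the ET3x1 pools 13.99, 14.07, 13.99 and 14.10, and the ET3x2 pools 14.02, 14.06, 14.06 and 14.03. The strains overlapped, with S pools A and B the 2 highest. The means were 14.12 ± 0.12 in S, 14.04 ± 0.055 in ET3x1 and 14.04 ± 0.023 in ET3x2 (SD, n = 4). Against S both substrains gave -0.08 (95% interval -0.22 to 0.06 in each, limma adjusted p = 0.601 and 0.682), and without pools A, B and J the differences had the other sign, 0.02 in ET3x1 and 0.01 in ET3x2. The substrains differed by 0.0027 (95% interval -0.13 to 0.14).

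The other β1 probe set, 1367814_at, had means of 14.13 ± 0.19 in S, 13.95 ± 0.22 in ET3x1 and 13.75 ± 0.24 in ET3x2 (SD, n = 4). It gave 14.28, 14.29 and 14.07 in pools A, B and J and 13.53 to 14.08 in the other 9 pools. ET3x2 minus S was -0.39 (SE 0.128, 95% interval -0.66 to -0.11) with an unadjusted p of 0.00893 and an adjusted p of 0.276 in limma. The groups overlapped, since ET3x2 pool J (14.07) was above S pool D (13.90). With arrays weighted by quality the adjusted p of this difference in limma was 0.0489, at -0.46, a setting under which 256 probe sets of RAE230A passed in this comparison in place of 9. Without pools A, B and J the ET3x2 minus S difference was -0.35 (limma adjusted p = 0.474). ET3x1 minus S was -0.18 (95% interval -0.45 to 0.10), and -0.03 without pools A, B and J.

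The gap between the 2 β1 probe sets was 0.11, 0.02, 0.04 and -0.11 in S, 0.07, 0.01, 0.05 and -0.48 in ET3x1, and -0.27, 0.01, -0.43 and -0.50 in ET3x2. Pools H, I, K and L were thus low and the other 8 lay near 0. The annotation gives the same source sequence for both probe sets, and the cause of the gap was not tested. The gap differed between ET3x2 and S by -0.31 (exact permutation p = 0.0571, adjusted 0.171), between ET3x1 and S by -0.10 (exact permutation p = 0.657) and between ET3x2 and ET3x1 by -0.21 (exact permutation p = 0.257).

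Fxyd2, the γ subunit of the pump, lowers its sodium affinity in the thick ascending limb and other tubule segments. Fxyd2 1387799_at read 13.56, 13.59, 13.69 and 13.66 in S, 13.76, 13.84, 13.91 and 13.79 in ET3x1 and 13.86, 13.64, 13.78 and 13.93 in ET3x2. All ET3x1 pools were above all S pools, and 3 of 4 ET3x2 pools were, the exception being J. The means were 13.63 ± 0.061 in S, 13.82 ± 0.067 in ET3x1 and 13.80 ± 0.12 in ET3x2 (SD, n = 4). ET3x1 was 0.20 above S (SE 0.0696, 95% interval 0.05 to 0.35, unadjusted p = 0.0126, adjusted p = 0.265 in limma). ET3x2 was 0.18 above S (95% interval 0.03 to 0.33, unadjusted p = 0.0225, adjusted p = 0.359 in limma), so neither passed. These 2 comparisons have their S pools in common, and the substrains differed by -0.02 (95% interval -0.17 to 0.13).

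Pools A, B and J held the 3 lowest Fxyd2 signals of the 12 (13.56, 13.59 and 13.64, against 13.66 to 13.93). Without them ET3x1 was 0.15 and ET3x2 0.18 above S (limma adjusted p = 0.553 and 0.523). With the actin control as a covariate the differences were again 0.15 and 0.18 (limma adjusted p = 0.359 and 0.131). The distal convoluted tubule marker list, of which 2 of 4 genes were above the minimum and Pvalb was below it, averaged 11.66 to 11.92 in S, 11.78 to 12.13 in ET3x1 and 11.98 to 12.12 in ET3x2, with 0 genes called. The thick limb list averaged 10.40 to 10.84 in S, 10.68 to 10.94 in ET3x1 and 10.54 to 10.75 in ET3x2. The part of these cell types in the Fxyd2 differences was not tested.

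Fxyd4, also called CHIF, raises the pump's sodium affinity in the collecting duct and responds to corticosteroids. Fxyd4 1387092_at read 10.90, 10.90, 11.26 and 10.91 in S, 11.06, 11.12, 11.13 and 11.04 in ET3x1 and 11.29, 11.05, 11.13 and 11.24 in ET3x2. Apart from pool C, the S pools were below all 8 congenic pools. ET3x1 minus S was 0.09 (95% interval -0.10 to 0.29, limma adjusted p = 0.685), ET3x2 minus S 0.18 (-0.01 to 0.38, adjusted p = 0.467) and ET3x2 minus ET3x1 0.09 (-0.11 to 0.29, adjusted p = 0.68). The ET3x1 minus S value was 0.0004 when A, B and J were omitted and 0.18 when pool C was, neither passing. The principal cell list, which marks the cells that hold CHIF, averaged 10.64 to 10.71 in S, 10.52 to 10.81 in ET3x1 and 10.68 to 10.76 in ET3x2.

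**Figure D3:**
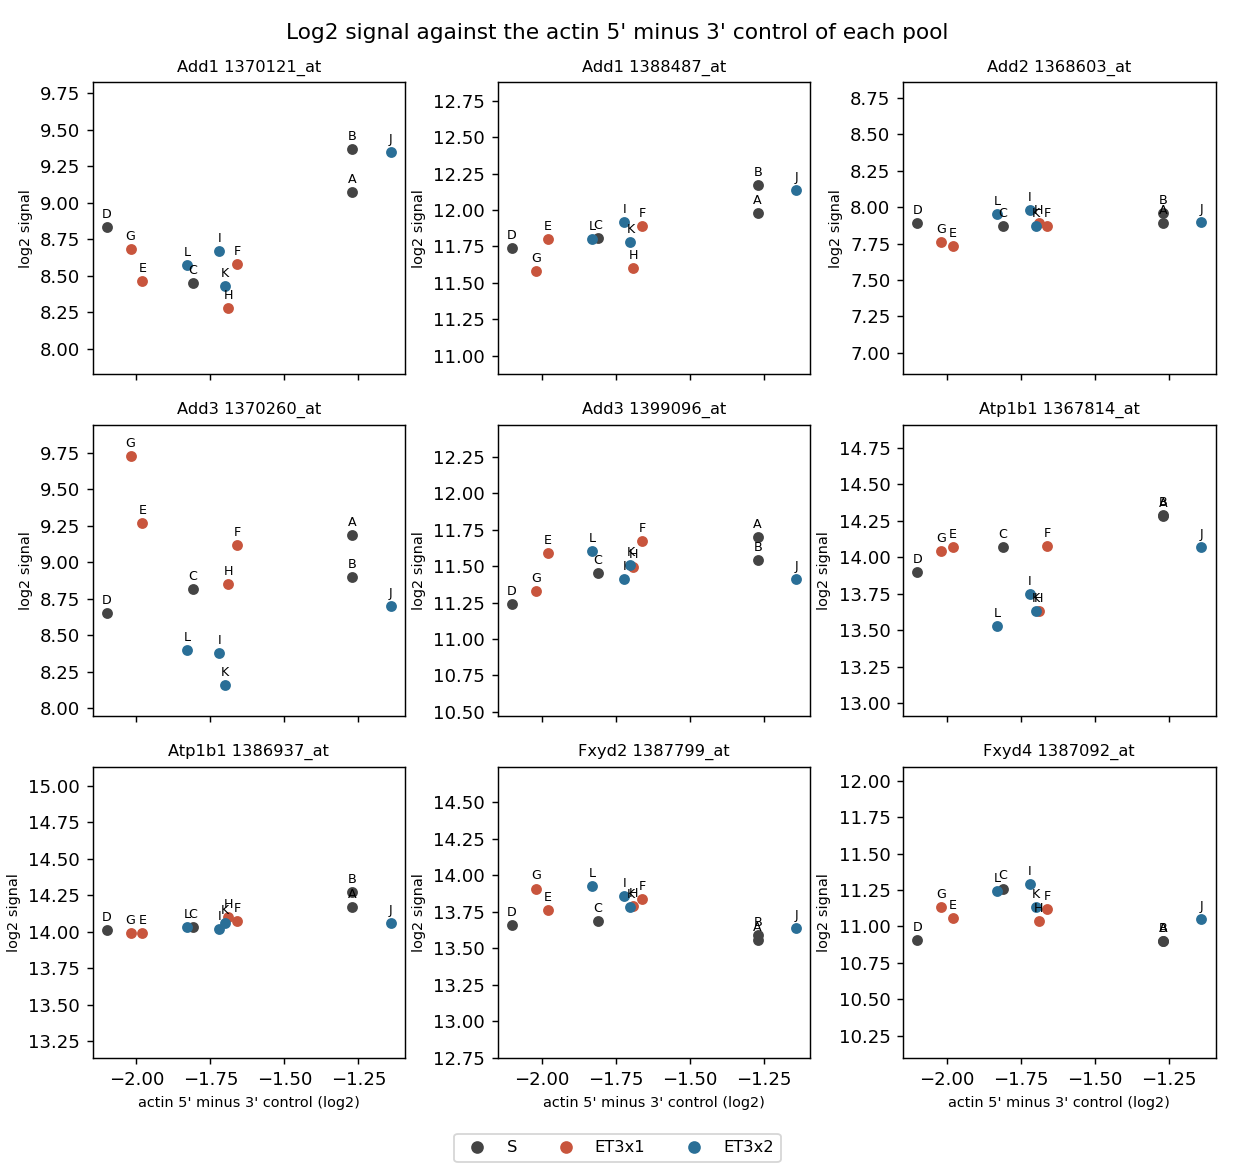
Log2 signal of each of the 9 probe sets (vertical axis) against the actin 5′ minus 3′ control of the same pool (horizontal axis, log2); colours are strains and letters are pools. Pools A, B and J lie apart on the right, where both Add1 probe sets are at their highest and Fxyd2 at its lowest.

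Counted over the 9 probe sets, 0 passed between ET3x1 and S and 0 between ET3x2 and S in limma, where 0.207% and 0.0810% of all tested RAE230A probe sets did. At an unadjusted p under 0.05 there were 3 of 9 in each of these comparisons, beside 13.2% and 11.4% of the array. For ET3x1 against S they were Add1 1370121_at, Add3 1370260_at and Fxyd2. For ET3x2 against S they were Add3 1370260_at, Atp1b1 1367814_at and Fxyd2. Between ET3x2 and ET3x1 the only one was Add3 1370260_at, beside 15.0%. Groups that did not overlap were found for 1 of 9 between ET3x1 and S (Fxyd2, beside 6.97%), 0 of 9 between ET3x2 and S (beside 5.84%) and 1 of 9 between ET3x2 and ET3x1 (Add3, beside 9.25%). With 9 probe sets of 6 genes on shared pools, no excess over these shares was tested.

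The direction was mixed. Relative to S, 4 probe sets were higher and 5 lower in each substrain. The median differences were -0.082 in ET3x1 and -0.017 in ET3x2, beside 0.002 and 0.031 over all tested RAE230A probe sets, and 0.003 beside 0.029 between ET3x2 and ET3x1. The 95% intervals reached 0.13 to 0.42 to either side of a difference, the narrowest being those of Add2 and Atp1b1 1386937_at and the widest that of Add1 1370121_at.

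**Figure D4:**
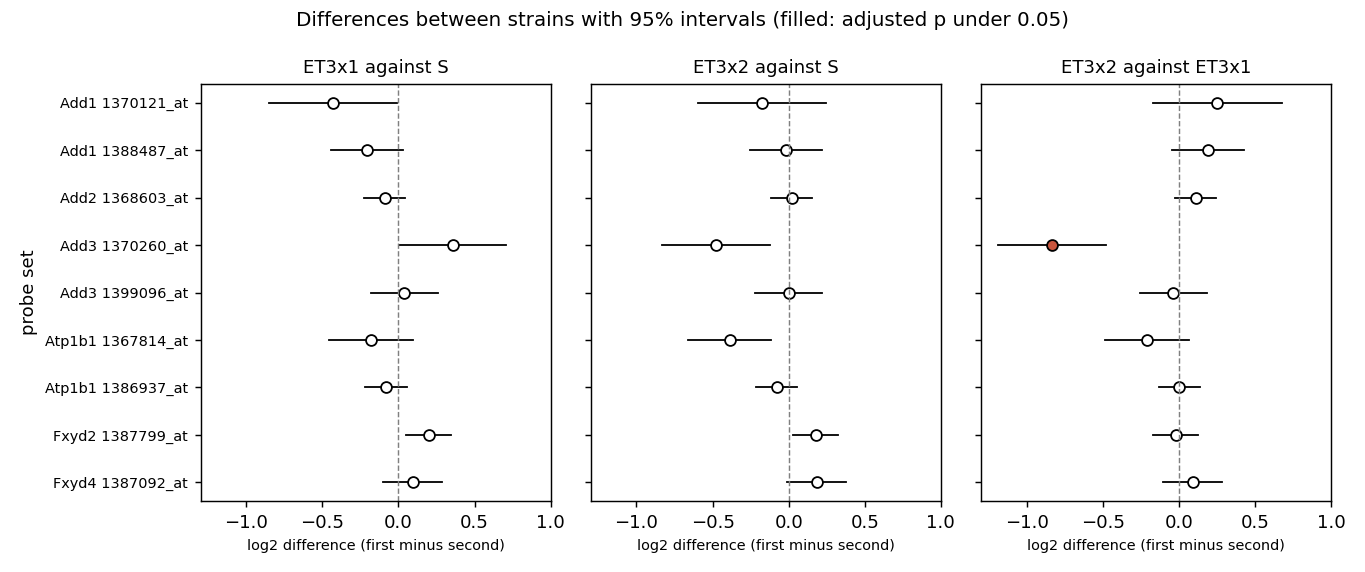
Log2 difference between strains (horizontal axis, first minus second) for each of the 9 probe sets, one panel per comparison; bars are 95% intervals and a filled point has an adjusted p under 0.05. Add3 1370260_at is filled in the ET3x2 against ET3x1 panel only, at -0.83.

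Other genes of the 2 systems were read in 3 lists, with 1 probe set a gene (the one with the highest mean signal). Over both arrays the share of tested probe sets that passed was 0.440% for ET3x1 against S, 0.344% for ET3x2 against S and 1.48% for the 2 substrains against each other. The RAE230A shares at an unadjusted p under 0.05 in limma were 13.2%, 11.4% and 15.0% in the same order. Of 18 pump and FXYD family genes, 15 had a probe set with a single symbol and 12 were tested, and 0 passed in any comparison. Their medians were 0.013, 0.030 and 0.038, beside -0.005, 0.025 and 0.032 over all tested probe sets of both arrays. Between ET3x2 and ET3x1, 11 of 12 were positive, at sizes of -0.02 to 0.10. At an unadjusted p under 0.05 in limma there were 1, 2 and 0. Those were Fxyd2 in both comparisons with S, and Fxyd5 (dysadherin), which was 0.27 above S in ET3x2 (adjusted p = 0.403). Atp1b3, the β3 subunit, gave -0.13 and -0.10 against S (limma adjusted p = 0.506 and 0.708). Atp1b4 and Nkain2 were among the genes below the minimum.

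Of 29 genes of the adducin and spectrin-actin skeleton, 25 had a probe set and 23 were tested. Again 0 passed in any comparison, with 3, 2 and 4 at an unadjusted p under 0.05 in limma and medians of -0.009, -0.010 and 0.019. Dmtn (dematin, an actin-bundling protein) differed by -0.35 between ET3x1 and S and by 0.30 between ET3x2 and ET3x1 (limma adjusted p = 0.236 and 0.218). Ank1 (ankyrin R, which joins membrane proteins to spectrin) was at 0.21 between ET3x2 and ET3x1, 0.15 between ET3x2 and S and -0.06 between ET3x1 and S (limma adjusted p = 0.231, 0.488 and 0.821). Ank3 (ankyrin G, which links the pump and other membrane proteins to spectrin) differed by -0.32 between ET3x2 and S and by -0.35 between ET3x2 and ET3x1 (limma adjusted p = 0.378 and 0.22). Spectrins αII and βII, to which adducin binds, were at -0.15 and -0.05 between ET3x1 and S and at -0.08 each between ET3x2 and S (Sptan1 and Sptbn1, limma adjusted p = 0.435 to 0.746).

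Of 38 genes for kinases, phosphatases, hormone receptors and endocytosis proteins that act on adducin or the pump, 37 had a probe set and 34 were tested. None passed against S in either substrain. At an unadjusted p under 0.05 in limma there were 7 and 2 against S, beside 13.2% and 11.4% of RAE230A. Between the substrains there were 9, beside 15.0%, and no excess over these shares was tested. All 34 were read on RAE230A. Of the 34, 1 passed the threshold between the substrains, beside 1.04% of all tested probe sets of that array. It was Ppp1r12a, the targeting subunit of myosin phosphatase, which also dephosphorylates adducin. Ppp1r12a 1382307_at was lower in ET3x2 than in ET3x1, at -0.42 (SE 0.0802, limma adjusted p = 0.0221). Its other probe sets gave -0.23 (1376662_at, adjusted p = 0.512) and -0.61 (1381850_at on RAE230B, adjusted p = 0.142). The call was lost without pool E, G, J or K, and without pools A, B and J together. It was also absent with a stricter minimum signal. That count does not tell a probe set left untested from one that did not pass. Pik3ca, a catalytic subunit of phosphoinositide kinase, was at -0.50 in the same comparison (limma adjusted p = 0.0867). Prkce, a protein kinase C form, was at 0.17 in ET3x1 and -0.09 in ET3x2 relative to S, and at -0.26 in ET3x2 relative to ET3x1 (limma adjusted p = 0.435, 0.758 and 0.201). Nr3c2, the mineralocorticoid receptor, was at 0.21, -0.05 and -0.26 in the same order (limma adjusted p = 0.449, 0.918 and 0.321). Other genes of the list went the other way, since between ET3x2 and ET3x1 20 of the 34 differences were positive and 14 negative. Among the positive ones were Ap2a2 at 0.34, Dnm2 at 0.27 and Sik1 at 0.26 (limma adjusted p = 0.126, 0.197 and 0.167).

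**Figure D5:**
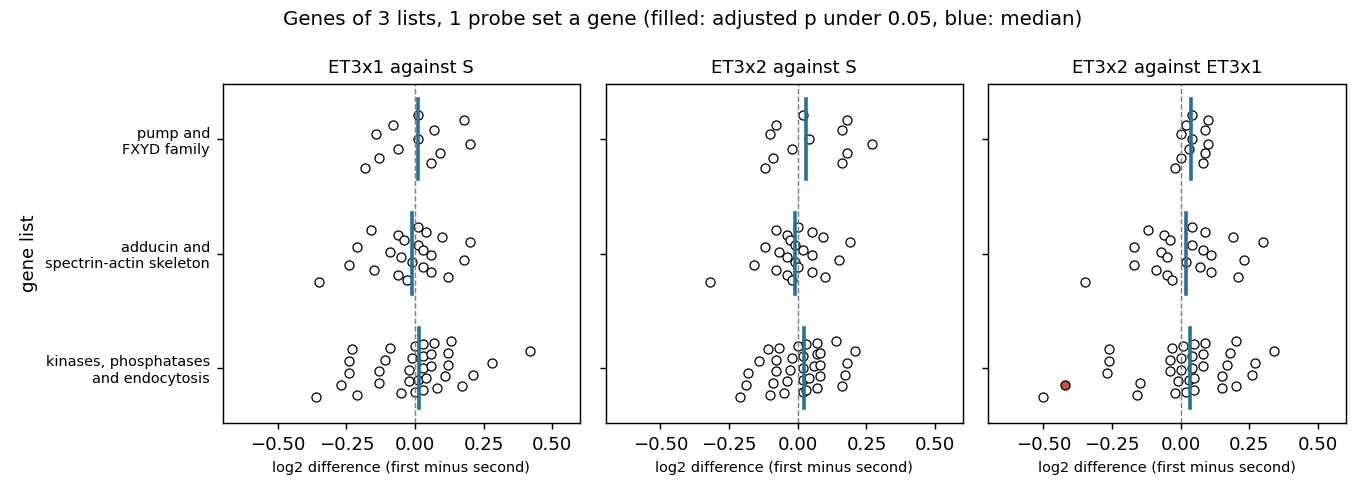
Log2 difference between strains (horizontal axis, first minus second) for the tested genes of the 3 lists, 1 point a gene, one panel per comparison; blue bars are list medians and a filled point has an adjusted p under 0.05. Ppp1r12a at -0.42 in the third panel is the only filled point, and every list median lies between -0.010 and 0.038.

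The genes whose signals over the 12 pools were most like those of each member were taken from 8126 genes of RAE230A, by Pearson correlation. These values are descriptions over 12 pools of 3 strains, so differences between strains enter them along with differences between pools. For Add3 1370260_at they were Ensa (0.966), Ddx6 (0.950) and Eml1 (0.934), and without pools A, B and J the values were 0.979, 0.961 and 0.939. Between ET3x2 and ET3x1, Ddx6 differed by -1.54, Eml1 by -0.76 and Ensa by -0.50 (limma adjusted p = 0.0132, 0.0492 and 0.0754). These genes were picked for following a called probe set over the same pools, so differences of the same sign were built into the choice. Their p-values add no separate support for the Add3 difference. For Add3 1399096_at the genes were others: Tmpo (0.917), Clasp1 (0.914) and Ythdf3 (0.912). The 2 γ-adducin probe sets had no gene in common among their 3 most similar. With only 3 of 8126 genes taken for each, this says little about how alike the 2 are.

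For Add1 1388487_at the most similar genes were Acvr1 (0.953), Pdgfrb (0.952) and Actg1 (0.951). For Atp1b1 1386937_at they were Apbb3 (0.897), Entrep3 (0.888) and Lrp2 (0.884), and without pools A, B and J these were 0.394, 0.667 and 0.282. The likeness of the β1 subunit to these genes thus lay largely in 3 pools. For Fxyd2 they were Tmem256 (0.962), Atp5mpl (0.956) and S100a1 (0.952), which stayed at 0.937, 0.943 and 0.918 without those pools. For Fxyd4 they were Dnajc15 (0.910), Tomm6 (0.910) and Bnip1 (0.907), and for Add2 Pex14 (0.938), Unc5b (0.887) and Stx1a (0.885).

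The intercalated cell marker list, with 4 of 5 genes above the minimum, averaged 9.14 to 9.21 in S, 9.22 to 9.41 in ET3x1 and 9.05 to 9.20 in ET3x2. In this list 1 gene passed in a comparison. The mean of the whole list was higher in ET3x1 (9.30) than in ET3x2 (9.13), as for Add3 1370260_at. The same held for the thick ascending limb (10.76 and 10.65), endothelium (10.02 and 9.92) and podocyte lists (10.70 and 10.68). The other lists had the lower mean in ET3x1. The part of any of these cell types in the Add3 difference was not tested. The proximal tubule list averaged 12.03 to 12.23, 11.99 to 12.27 and 12.16 to 12.26 in the 3 strains, with 0 genes called.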

How the data were processed

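RNA of 12 left-kidney pools was measured on 24 Affymetrix arrays (RAE230A and RAE230B). The deposited values were 1 signal per probe set and pool. They were taken as log2, since the deposited RAE230A values ran from 4.97 to 15.24. The summarisation and normalisation are not given in the sources used here, and arrays were not normalised again. Per the labels' protocols, cDNA was primed with oligo(dT), which favours 3′ ends. All columns were mapped to a pool by title.

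Each array design was fitted alone, leaving out 57 control probe sets, those with a mean over the 12 pools under the 30th percentile (7.52 on RAE230A, 6.85 on RAE230B) being dropped. limma 3.58.1 (R 4.3.3; lmFit, eBayes with an intensity trend) fitted 3 strains with one spread. Two-sided p-values were adjusted by Benjamini-Hochberg over all tested probe sets of an array and comparison, with a threshold of 0.05. The fit was tested on simulated data with independent pools, where the added differences were larger than those of the member probe sets. That run does not cover smaller differences or pools that differ in RNA quality. Probe sets of one gene were compared by exact permutation of the within-pool difference over 70 regroupings. Figures used matplotlib 3.10.9. The number of arrays limits the precision.

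Of the RAE230A and RAE230B probe sets, 12783 and 7564 had 1 platform symbol, 312 and 100 several and 2771 and 7612 none. Symbols were updated by gene ID where the RefSeq table (GRCr8) held it, for 12754 and 7530. Named were all probe sets of the 6 genes, in each list the called genes or the 2 with the smallest p, a few further pathway genes chosen after their values were seen, and the 3 genes most correlated with each member's brightest or called probe set. The members and lists were chosen with earlier results of these data known. The labels give no array date or batch. Alternatives were stricter or no filter, quantile normalisation, median centring, array weights, no trend, only the 2 strains compared, the actin control as covariate, and leaving out pools.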

Additional observations from a re-analysis of the deposited data

Results flagged for a closer look

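Atp1b1 1367814_at in ET3x1 pool H read 13.63, while the other 3 pools of that strain read 14.04 to 14.08. The gap to the nearest pool was 0.915 of the group's range, above Dixon's 95% critical value for 4 samples. With Atp1b1 1386937_at the same pool read 14.10, the highest of its strain. Fxyd4 1387092_at in S pool C read 11.26, while the other 3 S pools read 10.90 to 10.91, a gap of 0.968 of the range. In all, 27 groups were examined this way, and chance alone gives such a gap in about 5% of groups.

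The deviations of the 2 substrains from S differed for Add3 1370260_at. ET3x2 minus S less ET3x1 minus S was -0.83, tested as the difference between the substrains (limma adjusted p = 0.0288), since the S pools cancel. The same quantity for Add3 1399096_at was -0.04 (limma adjusted p = 0.897).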

How the results depend on the processing

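The 27 differences of the 9 probe sets were refitted under 21 alternatives, 564 refits in all. In 559 of them the side of the threshold was kept, and no called value changed direction. 2 of these, Atp1b1 1386937_at against S without A, B and J, took the other sign, moving by more than 1 standard error. In 4 others the Add3 1370260_at call between ET3x2 and ET3x1 was lost, all by leaving out 1 pool, and its value stayed between -0.96 and -0.67. With array weights 1 of the 9 passed between ET3x2 and S, Atp1b1 1367814_at, where the calls over RAE230A went from 9 to 256 (102 higher, 154 lower). When pools were left out one at a time, 0 to 1 of the 9 passed between ET3x2 and ET3x1. Uncalled values changed sign in 32 refits, and 18 of the 27 did so in none. Under the 50th percentile filter Add2 was below the minimum and was not tested. Array weights called 2 skeleton genes and 6 of the kinase list between the substrains, where 1051 probe sets of RAE230A passed (611 higher, 440 lower) against 116 (19 higher, 97 lower). The cause of these shifts was not tested. No paired analysis was possible because the pool letters are unique to a strain and pair no pools. The limits are 4 pools a strain, pools in place of single rats, whole-kidney RNA and an unstated normalisation.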
